A study of Mus musculus with 43 samples.

Results

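The transcripts described here are gene models that still carried a provisional name, Gm followed by a number, and that were abundant in full-grown mouse oocytes. They were chosen by level alone: every symbol of that form with a mean of at least 20 RPKM (read counts scaled by transcript length and by the size of the library) over the 3 wild-type (WT) oocyte libraries of the knockout series. This rule took 191 of 35842 symbols, or 191 of the 10109 Gm-numbered symbols in that table. A further 3638 symbols with other names passed the same level. The choice used the WT oocyte levels, so these levels, and the differences from WT that contain them, are given as descriptions. Just inside the limit were Gm12589 at 20.4, Gm42218 at 20.5 and Gm33301 at 20.5 RPKM, and just outside it were Gm26559 at 19.97, Gm7995 at 19.5 and Gm904 at 19.5 RPKM.

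The study compared RNA from mutant and WT mouse oocytes and morulae in 43 libraries, deposited in 3 tables. One table held full-grown oocytes with a triple knockout of Pcgf1, Pcgf6 and Mll2 (TKO, 3 libraries), with a double knockout of Pcgf1 and Pcgf6 (DKO, 3) and WT oocytes (3). The second held oocytes labelled as catalytic dead for PRC1 (PRC1-CD, 2) and their own wild-type set (PRC1-WT, 2), each library made from 10 pooled oocytes. The third held morulae labelled as maternal knockouts of the same genes, maternal TKO (10) and maternal DKO (10), and WT morulae (10). Strain, age, the Cre line and the number of cells behind the knockout and morula libraries are not given in the sources used here. One PRC1-CD library, the second, carries the tissue label embryo but an oocyte title and stage, and was used as an oocyte library. Oocyte markers were present as labelled: all 11 of a list of oocyte genes averaged at least 1 RPKM in each of the 5 oocyte groups. Pcgf1 stood at 12.2 ± 1.52 RPKM in TKO, 12.3 ± 1.47 in DKO and 1108 ± 39.9 in WT oocytes (SD, n = 3 each). Pcgf6 stood at 72.2 ± 9.86 RPKM in TKO, 57.1 ± 2.77 in DKO and 154 ± 5.65 in WT oocytes. Kmt2b, the gene of MLL2, stood at 1.14 ± 0.148 RPKM in TKO, 3.90 ± 0.315 in DKO and 4.85 ± 0.377 in WT oocytes. The catalytic-dead mutation is not a deletion, so no RNA level checks that label.

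A full-grown oocyte no longer transcribes. It lives on RNA stored during growth, most of which is removed after meiosis resumes and the embryo's own genome is switched on. In the mouse many oocyte RNAs, long noncoding RNAs (lncRNAs) above all, start in repeated elements that serve as promoters. PRC1 is a Polycomb complex that puts ubiquitin on lysine 119 of histone H2A. PCGF1 and PCGF6 each define a variant form of it, and MLL2 places methyl groups on lysine 4 of histone H3.

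The 191 transcripts were a mixed set. In the RefSeq annotation of GRCm38.p6, 159 matched by symbol and 25 by an older name now replaced, and 7 had no match. RefSeq classed 118 as lncRNAs, 37 as protein-coding genes, 28 as pseudogenes and 1 as miscellaneous RNA. Some of the replaced names identify known families. Gm10436, Gm13023, Gm13084, Gm13089, Gm13103, Gm13125 and Gm3259 are now Pramel51, Pramel25, Pramel26, Pramel23, Pramel27, Pramel15 and Pramel47, leucine-rich repeat proteins of the PRAME family, which is expanded in the mouse and active in germ cells. Gm13152 and Gm13242 are the zinc finger genes Zfp982 and Zfp980, Gm813 is Ftdc1, a gene with a ferritin domain, and Gm1821 is the ubiquitin B pseudogene Ubb-ps. A RefSeq gene lay on the other strand over 38 of the 184 matched transcripts, and on the same strand over 11. Whole gene spans were compared, introns included. Matched transcripts of unknown strand entered neither count, although some of them overlap a gene. The SMART-Seq v4 chemistry named in the labels does not record strand, so reads from bases transcribed by both genes of a pair cannot be separated.

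Levels in WT oocytes were steeply graded. The median was 47.0 RPKM, 50 transcripts reached 100 RPKM and 6 reached 1000 RPKM, while 55 lay under 30 RPKM. The first 10 held 64.5% of the summed level and the first alone held 20.9%. That first transcript, Gm15698 (now Elobl, elongin B-like, chr11:88964658-88966931, minus strand), ranked 1 among all symbols of the table. It had 8596, 8515 and 8703 RPKM in TKO oocytes, 9108, 9634 and 9441 RPKM in DKO oocytes and 8052, 7933 and 7788 RPKM in WT oocytes. The 3 groups did not overlap, with DKO highest and TKO between DKO and WT. In the other set Gm15698 had 8659 and 9745 RPKM in PRC1-CD oocytes and 6487 and 7858 RPKM in PRC1-WT oocytes, also without overlap, and the difference did not pass the test (log2 change 0.36 ± 0.19 SE, adjusted p = 0.223).

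The second, Gm1821 (Ubb-ps, chr14:46084027-46084957, plus strand), had 1992, 2149 and 2089 RPKM in TKO oocytes, 3598, 3597 and 3412 RPKM in DKO oocytes and 4609, 4283 and 4272 RPKM in WT oocytes. Every TKO library lay below every DKO library, and every DKO library below every WT library. TKO against DKO sets no WT level against another, although the WT libraries share in the estimate of the spread, and Gm1821 fell by 0.77 on the log2 scale (± 0.05 SE, adjusted p = 5.22e-06, and 0.000116 with TKO and DKO fitted alone). The word search, which asks for 50-base words that also occur in transcripts of other genes, found 84.9% of the words of Gm1821 elsewhere, and 79.6% of its words in the ubiquitin gene Ubb. Ubb itself averaged 3119 RPKM in TKO, 5024 in DKO and 6280 in WT oocytes, so the values of the pair moved together and reads may be split between them.

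The third, Gm813 (Ftdc1, chr16:58613686-58616978, minus strand), shares no such word with another gene. It had 2746, 3112 and 2901 RPKM in TKO oocytes, 3570, 4293 and 3690 RPKM in DKO oocytes and 4537, 4250 and 4326 RPKM in WT oocytes. TKO lay below DKO in all libraries and fell by 0.40 on the log2 scale (± 0.08 SE, adjusted p = 0.00185), while the highest DKO library reached into the WT range. Of the other 7 in the first 10, Gm10436, Gm13084, Gm13023 and Gm13103 are Pramel genes and Gm2042 shares 65.2% of its words with Oog1, oogenesin 1 of the same family. Gm4184 is a pseudogene and Gm3143 a lncRNA.

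The second set of wild-type oocytes, processed separately and used by no part of the rule, gave similar levels. Of the 191 transcripts, 180 also averaged at least 20 RPKM in PRC1-WT oocytes, 175 lay within 1.5 times of their WT mean, and the median ratio of PRC1-WT to WT was 0.959. The ratio exceeded 2 for 2 transcripts and was under 0.5 for 5. Gm20875, a pseudogene on chromosome 4, had 79.9 and 85.9 RPKM in PRC1-WT oocytes, against 259, 255 and 263 RPKM in WT oocytes. Levels set across the tables carry no test, since the tables were normalised apart. The share of a library's summed RPKM held by the 191 was 4.70 ± 0.168% in TKO, 5.33 ± 0.153% in DKO and 5.68 ± 0.115% in WT oocytes (SD, n = 3 each). It was 5.05% and 5.12% in the PRC1-CD libraries, against 5.32% and 5.65% in the PRC1-WT libraries.

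Most of the 191 were all but gone in WT morulae. There, 128 of 191 (67%) averaged at most 1 TPM (a like unit scaled to a fixed library total), and 46 of these were listed at 0 in all 10 libraries. Among the 3637 other symbols that passed 20 RPKM in WT oocytes and were in the morula table, 411 (11.3%) averaged at most 1 TPM. The set held 0.772 ± 0.0651% of the summed level of WT morulae (SD, n = 10) and 5.68 ± 0.115% of that of WT oocytes (SD, n = 3). For scale, 11 of 19 well-known maternal genes that reached 20 RPKM in WT oocytes averaged at most 1 TPM in WT morulae. The morula level does not say whether RNA was carried over from the egg or newly made.

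**Figure D1:**
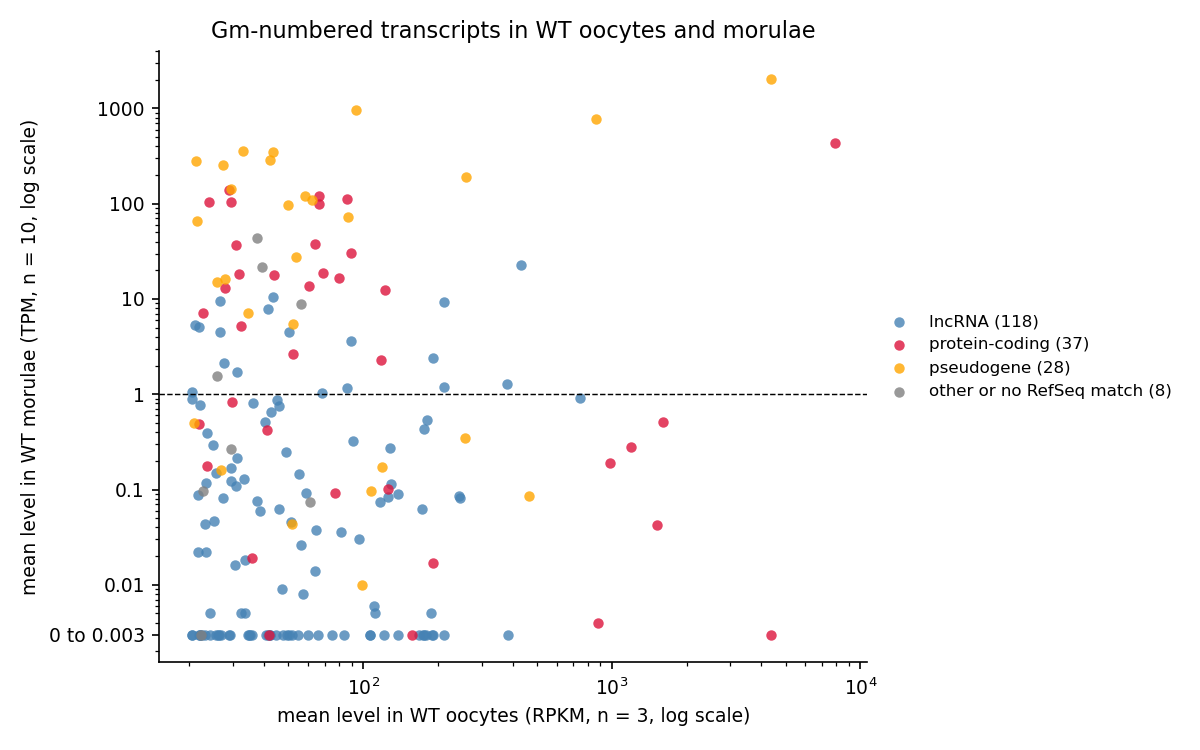
Mean level of each of the 191 transcripts in WT morulae (TPM, log scale, n = 10) against its mean level in WT oocytes (RPKM, log scale, n = 3), with levels below 0.003 TPM drawn at the foot of the axis and a dashed line at 1 TPM. Most lncRNAs lie below the line and most pseudogenes above it, and high oocyte levels occur on both sides.

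The share left at such low levels differed by class. At most 1 TPM was left of 100 of the 118 lncRNAs (84.7%), of 16 of the 37 protein-coding transcripts (43.2%) and of 8 of the 28 pseudogenes (28.6%). Among symbols with other names lncRNAs also led, with 39 of 62 (62.9%), ahead of 5 of 20 pseudogenes (25%) and 340 of 3383 protein-coding genes (10.1%). All 7 Pramel genes were at most 1 TPM, although their median in WT oocytes was 878 RPKM. Gm813 was listed at 0 in all 10 WT morulae. The lncRNA Gm3143 ranged between 0 and 4.48 TPM in WT morulae with a median of 0.51 TPM, against 743, 748 and 736 RPKM in WT oocytes.

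**Figure D2:**
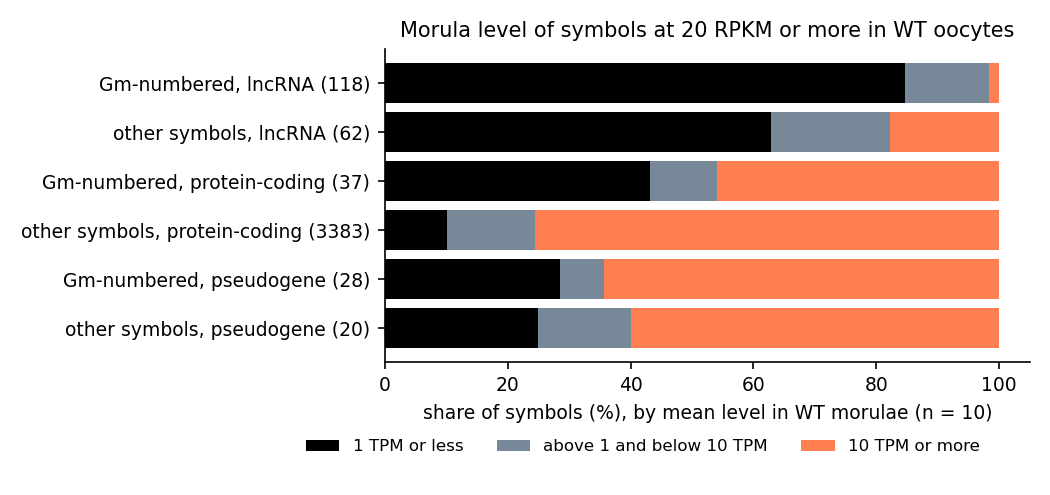
Share of symbols in 3 ranges of mean level in WT morulae (n = 10 libraries), for symbols at 20 RPKM or more in WT oocytes, by RefSeq class, with the number of symbols in brackets. The share at 1 TPM or less was 84.7% of Gm-numbered lncRNAs and 28.6% of Gm-numbered pseudogenes.

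Copies of other genes were frequent among the transcripts with the higher levels in WT morulae. At least 10 TPM was found for 39, of which 18 were pseudogenes, 17 protein-coding, 2 lncRNAs and 2 without a match, and these 39 held 98.5% of the summed morula level of the 191. Gm1821 led with a lowest, median and highest WT morula library of 1318, 1995 and 3028 TPM. Gm9794, which shares 86.6% of its words with the ribosomal protein gene Rpl23, followed at 709, 909 and 1315 TPM, whereas it had 94.5, 91.3 and 94.0 RPKM in WT oocytes. Rpl23 averaged 1296 TPM in WT morulae and 149 RPKM in WT oocytes, so the member and its near-copy were both higher in the morula table.

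Other pseudogenes at 10 TPM or more in WT morulae had the same kind of partner. Gm9385 shares 88.2% of its words with Rpl24 and averaged 360 ± 59.7 TPM in WT morulae (SD, n = 10). Gm8430 (Rps27a-ps3) shares 88.2% with Rps27a, another ribosomal protein gene, and averaged 346 ± 47.9 TPM. Gm12338 shares all of its words with the cytochrome oxidase subunit gene Cox7c and averaged 142 TPM. Gm6083 shares 26.0% of its words with other genes, most with the pluripotency-associated gene Dppa5a, and averaged 257 ± 51.6 TPM. Reads of these pairs may be assigned to either gene, so their morula levels are uncertain. In WT oocytes Gm9385, Gm8430, Gm12338 and Gm6083 averaged 32.9, 43.4, 29.4 and 27.4 RPKM, so they too stood higher in the morula table.

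A transcript could be searched for 121 of the 191. With no shared word, 44 of 57 (77.2%) averaged at most 1 TPM in WT morulae. With fewer than 50% of words shared it was 25 of 38 (65.8%), and with 50% or more it was 7 of 26 (26.9%). Pseudogenes made up 14 of these 26, and 12 of the 14 were at 10 TPM or more. Not every transcript at 10 TPM or more had such a partner. Gm15698 shares 12.1% of its words with other genes and had a lowest, median and highest WT morula library of 265, 411 and 670 TPM. Gm5617, Gm561 (Smim26, a small membrane protein gene) and Gm11545, all protein-coding and without a shared word, averaged 139, 121 and 112 TPM. Gm40003, a lncRNA on chromosome 2, averaged 22.9 TPM in WT morulae and 433 RPKM in WT oocytes, the highest morula level among the lncRNAs of the set.

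Promoter sequence was available in RefSeq for 130 of the 191, as 250 bases before to 50 after an annotated start. These promoters were poorer in CpG than those of other abundant genes: the median ratio of observed to expected CpG was 0.245, against 0.794 for 2837 other genes at 20 RPKM or more, 0.390 for all 27025 genes and 0.248 for all 9533 lncRNA genes. The share holding TAATTA or TAATTG on either strand was 27.7%, against 9.87% in the other abundant genes, 14.2% in all genes and 17.3% in all lncRNA genes. TATAAA on either strand was found in 16.9%, against 15.7% of all genes, 17.3% of all lncRNA genes and 9.34% of the other abundant genes. In the same order, CCAAT stood in 50%, against 41.1, 38.8 and 46.2%, and the E box CANNTG in 83.1%, against 75, 80.3 and 67.4%. These searches could overlap one another. A 30-base word shared with the promoter of another gene, on either strand, occurred in 31 of the 130 (23.8%), against 12.9% of all genes, 11.6% of all lncRNA genes and 4.55% of the other abundant genes.

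The largest group joined by such words held 7 lncRNAs on 6 chromosomes: Gm3143, Gm41644, Gm36303, Gm36480, Gm13715, Gm19299 and Gm34369. Each shared a word with the promoters of between 20 and 53 genes in all, so the shared stretch is repeated in the genome. Of these, 2 rose and 2 fell in PRC1-CD oocytes, and those 4 windows are shown 5′ to 3′ on the strand of the gene, with capitals for bases in 30-base words that occur in another of the 7 windows on either strand. They are chr3:34716749-34716835 on the minus strand for Gm3143, chr17:85755879-85756178 on the plus strand for Gm41644, chr5:91850915-91851200 on the minus strand for Gm36303 and chr15:90353644-90353742 on the plus strand for Gm36480 (RefSeq, GRCm38.p6).
Gm3143: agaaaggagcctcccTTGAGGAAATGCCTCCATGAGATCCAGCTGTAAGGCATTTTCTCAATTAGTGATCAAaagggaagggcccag
Gm41644: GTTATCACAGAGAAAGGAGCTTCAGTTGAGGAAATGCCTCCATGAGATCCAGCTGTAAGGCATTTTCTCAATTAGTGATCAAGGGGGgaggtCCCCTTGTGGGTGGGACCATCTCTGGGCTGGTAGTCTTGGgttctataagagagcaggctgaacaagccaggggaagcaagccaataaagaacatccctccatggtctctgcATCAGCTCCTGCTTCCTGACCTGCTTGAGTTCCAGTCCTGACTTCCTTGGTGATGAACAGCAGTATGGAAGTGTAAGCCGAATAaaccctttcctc
Gm36303: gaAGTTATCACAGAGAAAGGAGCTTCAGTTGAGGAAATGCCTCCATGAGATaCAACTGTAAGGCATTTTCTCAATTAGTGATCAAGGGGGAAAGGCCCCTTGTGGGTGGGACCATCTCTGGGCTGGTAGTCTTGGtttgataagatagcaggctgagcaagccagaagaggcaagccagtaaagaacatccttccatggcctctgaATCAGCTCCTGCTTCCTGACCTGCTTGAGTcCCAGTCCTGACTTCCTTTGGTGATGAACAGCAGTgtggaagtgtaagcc
Gm36480: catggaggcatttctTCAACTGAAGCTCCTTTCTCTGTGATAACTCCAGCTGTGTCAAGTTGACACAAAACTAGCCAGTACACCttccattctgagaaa
Gm3143 and Gm36303 share 28 and 37 words with Gm41644 in the same orientation. Gm13715 shares 10 words with it in the other orientation only. CAATTA or its reading on the other strand, TAATTG, stands in 5 of the 7 windows, and 36 of the 130 promoters hold that motif or TAATTA, so most promoters with it lie outside the group.

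All 7 averaged below 1 TPM in WT morulae, and Gm41644, Gm36303 and Gm34369 were listed at 0 in every one of the 30 morula libraries. In oocytes they did not move as one. Gm3143 and Gm41644 were higher in each mutant, as given for each comparison in turn. Gm36480 had 96.2, 98.7 and 122 RPKM in TKO, 130, 124 and 137 RPKM in DKO and 186, 162 and 173 RPKM in WT oocytes, without overlap between groups. Gm36303 had 10.3 and 11.5 RPKM in PRC1-CD oocytes, against 22.7 and 23.7 RPKM in PRC1-WT oocytes, and fell by 1.03 on the log2 scale (± 0.16 SE, adjusted p = 0.00456). Its call was lost without the second PRC1-WT (adjusted p = 0.0518), the first PRC1-CD (0.0627) or the second PRC1-CD library (0.0501). Gm36480 had 108 and 113 RPKM in PRC1-CD oocytes, against 158 and 165 RPKM in PRC1-WT oocytes, and fell by 0.54 (± 0.15 SE, adjusted p = 0.037), a call lost without any 1 library (adjusted p between 0.119 and 0.159) and with no filter on low values (0.0607). Gm13715, Gm19299 and Gm34369 did not pass the test in PRC1-CD oocytes, with log2 changes of 0.17 ± 0.20, -0.04 ± 0.17 and -0.32 ± 0.33 (SE).

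In PRC1-CD oocytes more of the transcripts fell than rose. Of 190 tested in PRC1-CD against PRC1-WT oocytes, 43 fell and 12 rose (limma, adjusted p under 0.05 over all genes). The share called was 28.9%, against a background of 22.9% of all genes tested and 11.3% of the other abundant genes. Falls alone made up 43 of 190, against 5.61% of all genes and 6.00% of the other abundant genes, and rises 12 of 190, against 17.3% and 5.34%. The median log2 change of the 190 was -0.24, against 0.04 over all genes. Leaving out 1 of the 2 libraries of a group left the other group alone to give the spread, and fewer passed. Without the first PRC1-WT library 16 were lower and 2 higher, and without the second 9 were lower and 7 higher. Without the first PRC1-CD library 10 were lower and 6 higher, and without the second 12 were lower and 1 higher. All 55 kept their direction in each of these 4 fits. Each fit reused libraries that had chosen the 55, so a kept direction is no separate check. The excess of falls was small in the fits without the second PRC1-WT or the first PRC1-CD library. Of the called transcripts described here, Gm6943, Gm32585, Gm13152 and Gm40042 passed in all 4. A list of 14 granulosa and cumulus markers, cells that surround the oocyte, summed to between 68.0 and 75.7 RPKM in PRC1-CD libraries, against 34.0 to 37.6 RPKM in PRC1-WT libraries, with 7 of 14 and 4 of 14 at a mean of at least 1 RPKM. Amh was at 0 in both PRC1-CD libraries and Foxl2 in both PRC1-WT libraries, and the part of such cells in the result was not tested. A list of 7 blood and stroma markers summed to between 11.7 and 12.8 RPKM in PRC1-CD libraries, against 9.34 to 11.02 RPKM in PRC1-WT libraries, with Hba-a1 and Hbb-bs at 0 in all of them. A list of 10 morula genes summed to between 1729 and 1786 RPKM in PRC1-CD libraries, against 924 to 1605 RPKM in PRC1-WT libraries. Most of that sum came from a single gene, Dppa5a, which averaged 1680 RPKM in PRC1-CD and 1219 in PRC1-WT oocytes. The part of these lists was not tested either. In pooled samples fewer cells of a type and less RNA per cell cannot be told apart.

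The falls were spread over the classes: 30 of 118 lncRNAs, 8 of 37 protein-coding transcripts and 5 of 27 pseudogenes tested. The largest was Gm6943, a protein-coding model on chromosome 12 at chr12:19526610-19564157 (plus strand), with 3.15 and 0.18 RPKM in PRC1-CD oocytes and 43.6 and 75.1 RPKM in PRC1-WT oocytes. The groups lay far apart, and the log2 change was -4.72 ± 0.55 (SE, adjusted p = 0.0013). All words of this model occur in other genes. Gm32585, a lncRNA on chromosome 5 without a shared word, had 6.23 and 9.32 RPKM in PRC1-CD oocytes and 29.3 and 30.5 RPKM in PRC1-WT oocytes (log2 change -1.84 ± 0.21, adjusted p = 0.0012). Gm36159 (19.6 and 56.4 RPKM, against 85.5 and 122 RPKM) and the protein-coding Gm14295 (14.2 and 8.66 RPKM, against 32.1 and 32.8 RPKM) had log2 changes of -1.58 ± 0.44 (adjusted p = 0.0397) and -1.47 ± 0.23 (adjusted p = 0.00454). Both calls were lost without 1 library: Gm36159 had adjusted p = 0.14 and 0.234 without the first and the second PRC1-WT library and 0.18 without the first PRC1-CD library, as well as 0.16 with no filter on low values, and Gm14295 had 0.055 and 0.0658 without the first and the second PRC1-WT library.

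Among the Pramel genes 3 of 7 fell in PRC1-CD oocytes and none of them rose. These were Gm13103, Gm13089 and Gm3259, which share 43.3, 0.06 and 83.1% of their words with other genes. Reads of Gm13103 and Gm3259 may therefore be split with those genes. Gm13103 (Pramel27, chr4:143846497-143853637, plus strand) had 319 and 335 RPKM in PRC1-CD oocytes, against 686 and 726 RPKM in PRC1-WT oocytes, and fell by 1.11 (± 0.15 SE, adjusted p = 0.00246). Gm13089 (Pramel23) had 45.1 and 62.0 RPKM, against 106 and 130 RPKM (log2 change -1.13 ± 0.20, adjusted p = 0.00765). Gm3259 (Pramel47) had 117 and 86.2 RPKM, against 197 and 180 RPKM (log2 change -0.90 ± 0.19, adjusted p = 0.014). The other 4 had log2 changes between -0.63 and -0.29 that did not pass. Each of the 3 calls was lost in some fits with 1 library fewer: Gm13103 had adjusted p = 0.0624 and 0.0565 without the first and the second PRC1-CD library, Gm13089 had 0.0823 without the second PRC1-WT and 0.0946 without the first PRC1-CD library, and Gm3259 had 0.106 and 0.0818 without the first and the second PRC1-WT library and 0.112 without the second PRC1-CD library. With no filter on low values Gm3259 did not pass either (0.0625). The zinc finger gene Gm13152 (Zfp982) had 46.6 and 36.7 RPKM in PRC1-CD oocytes, against 102 and 99.9 RPKM in PRC1-WT oocytes, and fell by 1.26 (± 0.17 SE, adjusted p = 0.00244).

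Rises were led by lncRNAs. Gm41644 had 130 and 252 RPKM in PRC1-CD oocytes and 60.5 and 45.1 RPKM in PRC1-WT oocytes (log2 change 1.78 ± 0.31, adjusted p = 0.00667). Gm40042 had 103 and 111 RPKM, against 32.6 and 40.4 RPKM (log2 change 1.53 ± 0.17, adjusted p = 0.00109). Gm33819 had 71.7 and 109 RPKM, against 29.0 and 38.0 RPKM (log2 change 1.39 ± 0.24, adjusted p = 0.00625). These groups did not overlap. The pseudogene Gm35498 had 108 and 111 RPKM, against 36.3 and 55.3 RPKM (log2 change 1.26 ± 0.21, adjusted p = 0.00606). Gm3143, the most abundant of the risers, had 1025 and 1423 RPKM in PRC1-CD oocytes, against 564 and 691 RPKM in PRC1-WT oocytes (log2 change 0.95 ± 0.21, adjusted p = 0.0178). Without single libraries 4 of these 5 calls were lost in at least 1 fit: Gm3143 had adjusted p between 0.0719 and 0.182 without any 1 of the 4 libraries, Gm41644 had adjusted p = 0.0503 and 0.0913 without the first and the second PRC1-WT library and 0.0664 without the second PRC1-CD library, Gm33819 had 0.0736 and 0.0863 without the first PRC1-WT and the second PRC1-CD library, and Gm35498 had 0.113 and 0.111 without the first and the second PRC1-CD library. With no filter on low values Gm3143 (0.0878), Gm41644 (0.0615) and Gm33819 (0.0513) did not pass.

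**Figure D3:**
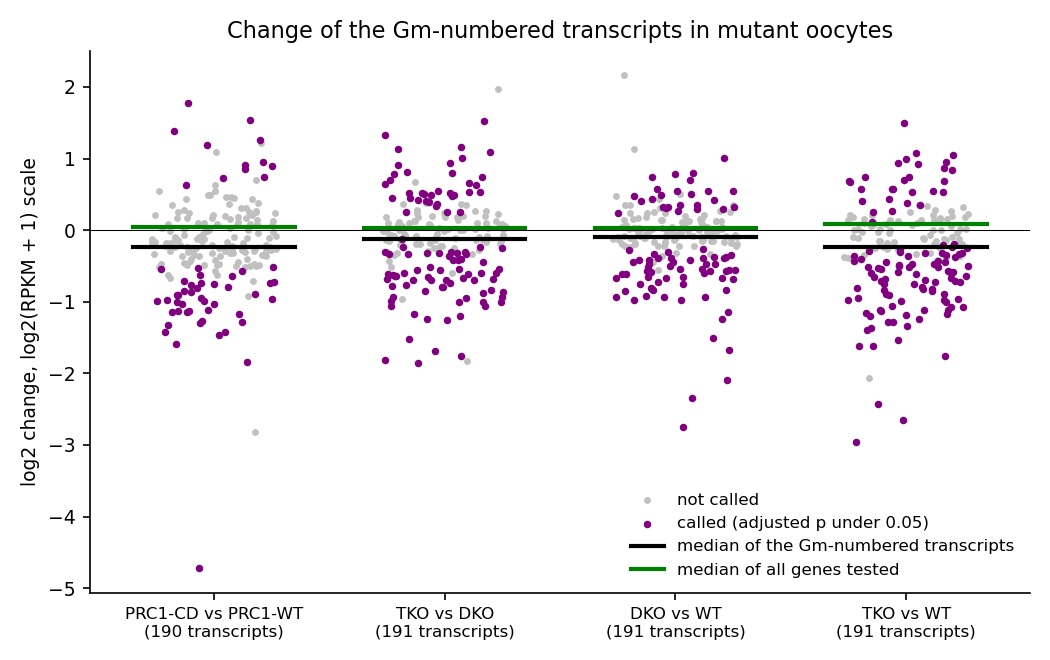
Log2 change of each tested transcript on the log2(RPKM + 1) scale in 4 oocyte comparisons, with called transcripts in purple, the median of the Gm-numbered transcripts in black and the median of all genes in green. The black line lies below the green line in each comparison, at -0.24 against 0.04 for PRC1-CD, and the comparisons with WT contain the libraries that chose the transcripts.

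TKO oocytes lack MLL2 in addition to PCGF1 and PCGF6, and transcripts differed from DKO oocytes in both directions. TKO against DKO oocytes contrasts 2 groups that did not serve the choice, with the WT libraries in the fit for the spread only, and had 66 of 191 lower and 36 higher. With TKO and DKO fitted alone, 59 were lower and 33 higher. The fit of all groups called 53.4% of the 191, against a background of 48.6% of all genes and 55.7% of the other abundant genes. Falls stood at 66 of 191, against 21.8% of all genes and 25.6% of the other abundant genes, and rises at 36 of 191, against 26.8% and 30.2%. The median log2 change was -0.12, against 0.04 over all genes. By class, 21 of 37 protein-coding transcripts fell and 4 rose, 32 of 118 lncRNAs fell and 24 rose, and 10 of 28 pseudogenes fell and 8 rose. Summed lists of markers of other cells differed between TKO and DKO libraries. The granulosa and cumulus list summed to between 35.2 and 40.1 RPKM in TKO, 28.3 and 33.3 in DKO and 31.2 and 34.9 in WT libraries, with 5, 5 and 4 of 14 at a mean of at least 1 RPKM. Foxl2 was at 0 in all DKO and Vim in all TKO libraries. The blood and stroma list summed to between 11.5 and 16.0 RPKM in TKO, 6.05 and 8.23 in DKO and 9.35 and 10.7 in WT libraries, with Hbb-bs at 0 in all of them. The morula list summed to between 1284 and 1878 RPKM in TKO, 2630 and 2927 in DKO and 1198 and 1602 in WT libraries. Most of that sum came from a single gene of the list, Dppa5a, which averaged 1549 RPKM in TKO, 2730 in DKO and 1359 in WT oocytes. The part of these lists in the result was not tested.

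The Pramel genes fell in 6 of 7 cases. Of those that fell, Gm3259, Gm10436, Gm13103, Gm13084 and Gm13023 share 83.1, 63.6, 43.3, 38.4 and 38.1% of their words with other genes. Gm13125 had no transcript to search. Reads may be split within the family, so these falls may not be separate. Gm13103 had 380, 388 and 396 RPKM in TKO oocytes and 560, 661 and 684 RPKM in DKO oocytes, without overlap (log2 change -0.70 ± 0.08, adjusted p = 8.89e-05). The exception was Gm13089 (Pramel23, chr4:143696487-143702711, minus strand), with 130, 155 and 174 RPKM in TKO oocytes and 63.6, 67.0 and 83.8 RPKM in DKO oocytes, which rose by 1.09 (± 0.13 SE, adjusted p = 0.000144). It lies in the same stretch of chromosome 4 as Gm13103 and shares 0.06% of its words with other genes. WT oocytes had 141, 118 and 117 RPKM of Gm13089, between the DKO and TKO ranges except that the lowest TKO library lay below the highest WT library.

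The largest falls in TKO against DKO oocytes were those of Gm13152, Gm30423, Gm10364 and Gm32687. Gm13152 (Zfp982) had 17.8, 15.6 and 13.6 RPKM in TKO oocytes and 49.0, 76.8 and 54.6 RPKM in DKO oocytes (log2 change -1.86 ± 0.17, adjusted p = 3.47e-05). The lncRNA Gm30423 had 3.77, 2.77 and 4.33 RPKM in TKO oocytes and 14.2, 17.0 and 14.2 RPKM in DKO oocytes (log2 change -1.82 ± 0.13, adjusted p = 7.18e-06). None of these groups overlapped. The pseudogene Gm10364 and the protein-coding Gm32687 fell by 1.75 (± 0.13 SE, adjusted p = 6.56e-06) and by 1.68 (± 0.16 SE, adjusted p = 4.13e-05). Gm32687 shares 93.5% of its words with the zinc finger gene Zfp433, which averaged 12.6 RPKM in TKO, 37.2 in DKO and 41.9 in WT oocytes.

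The largest rises were those of Gm6792, Gm35167, Gm33875 and Gm11985. Gm6792 (Epp13, named as an epididymal protein) had 135, 146 and 162 RPKM in TKO oocytes and 57.5, 49.1 and 46.3 RPKM in DKO oocytes (log2 change 1.52 ± 0.09, adjusted p = 2.60e-06). The lncRNA Gm35167 had 59.6, 64.6 and 67.2 RPKM in TKO oocytes and 25.1, 24.7 and 24.9 RPKM in DKO oocytes (log2 change 1.32 ± 0.09, adjusted p = 5.38e-06). In comparison, WT oocytes had 78.3, 74.3 and 78.3 RPKM of Gm6792 and 23.9, 23.0 and 19.0 RPKM of Gm35167. Gm11985 (Ccdc201, whose human counterpart has been linked to early menopause when lost) had 225, 263 and 237 RPKM in TKO oocytes, 90.3, 105 and 137 RPKM in DKO oocytes and 174, 164 and 163 RPKM in WT oocytes. It rose by 1.14 in TKO against DKO (± 0.13 SE, adjusted p = 9.71e-05), and the 3 groups did not overlap. Gm33875, a lncRNA, had between 17.0 and 22.0 RPKM in TKO oocytes and between 6.91 and 9.79 RPKM in DKO oocytes (log2 change 1.16 ± 0.13, adjusted p = 8.22e-05).

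**Figure D4:**
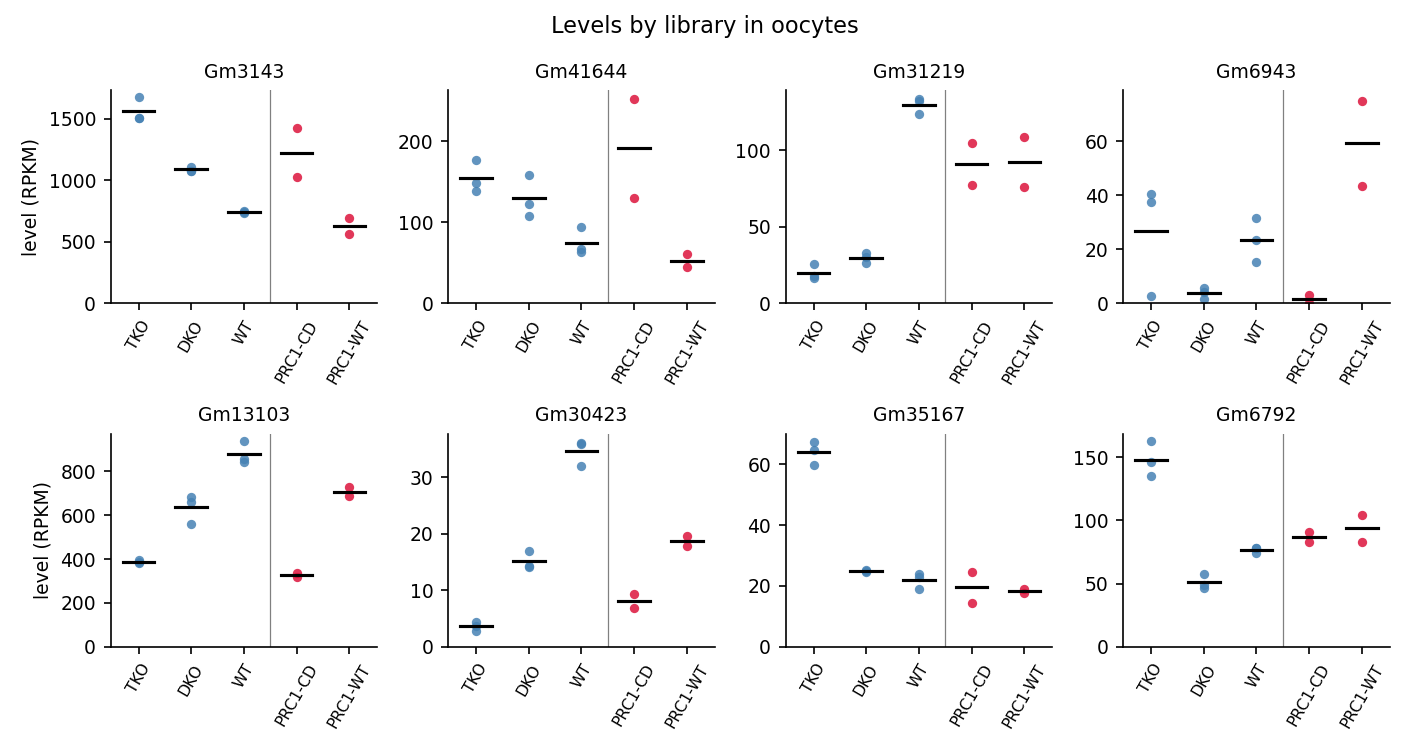
Level of 8 transcripts in each oocyte library (RPKM, linear axis), with blue points for the knockout table, red points for the PRC1 table and a bar at each group's mean. Gm3143 and Gm41644 are higher in every mutant group, Gm13103 and Gm30423 lower in every one, and Gm35167 and Gm6792 are highest in TKO oocytes.

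The comparisons with WT contain the libraries that chose the transcripts and share them, so their counts are printed as descriptions. DKO against WT had 59 of 191 called lower and 25 higher (44.0%, background 28.8% of all genes, of which 11.3% lower and 17.5% higher), and TKO against WT had 86 lower and 28 higher (59.7%, background 51.3%, of which 20.1% lower and 31.2% higher). The median log2 changes were -0.09 for DKO and -0.24 for TKO, against 0.03 and 0.09 over all genes. Gm31219, a lncRNA on chromosome 13 that overlaps Fam81b on the other strand, had 25.9, 17.9 and 16.7 RPKM in TKO, 30.1, 32.7 and 26.1 RPKM in DKO and 132, 133 and 124 RPKM in WT oocytes. The groups did not overlap, and the log2 changes from WT were -2.65 ± 0.15 in TKO and -2.10 ± 0.15 in DKO (SE). In the PRC1 table it had 77.2 and 104 RPKM in PRC1-CD oocytes, against 75.8 and 108 RPKM in PRC1-WT oocytes, with full overlap (log2 change -0.01 ± 0.23, adjusted p = 0.973). Fam81b averaged 1.66 RPKM in TKO, 4.76 in DKO and 1.05 in WT oocytes. Gm31816, a lncRNA, had 105, 84.4 and 94.1 RPKM in TKO, 53.3, 57.3 and 52.3 RPKM in DKO and 174, 177 and 176 RPKM in WT oocytes, lowest in DKO.

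On the higher side, Gm3143 had 1675, 1510 and 1507 RPKM in TKO, 1112, 1079 and 1078 RPKM in DKO and 743, 748 and 736 RPKM in WT oocytes, in 3 separate steps. The step between TKO and DKO passed the test (log2 change 0.52 ± 0.05, adjusted p = 5.58e-05). Gm41644 had 148, 139 and 177 RPKM in TKO, 158, 122 and 108 RPKM in DKO and 63.9, 93.9 and 66.9 RPKM in WT oocytes. Both mutants lay above WT, and TKO and DKO overlapped (log2 change 0.27 ± 0.17, adjusted p = 0.22). Gm34045, a lncRNA, was higher in DKO alone by its values, with 26.7, 18.6 and 20.6 RPKM in TKO, 43.4, 50.02 and 40.5 RPKM in DKO and 22.1, 21.7 and 21.2 RPKM in WT oocytes. TKO against DKO fell by 1.0 for it (± 0.13 SE, adjusted p = 0.000175).

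PRC1-CD and DKO oocytes were compared with different wild-type libraries, so their calls can be set side by side. Of the 43 transcripts called lower in PRC1-CD, 30 (69.8%) were among the 59 called lower in DKO, of which they make up 50.8%. Over all genes tested in both, 368 of the 723 lower in PRC1-CD (50.9%) were among the 1430 lower in DKO (25.7%), and over the other abundant genes 116 of 218 (53.2%) were lower in DKO too, and made up 22.1% of those lower in DKO. Of the 12 called higher in PRC1-CD, 7 (58.3%) were among the 25 called higher in DKO (28%): Gm12589, Gm14635, Gm30627 (Tmem151a), Gm3143, Gm33819, Gm38993 and Gm41644. Calls in opposite directions numbered 3, where Gm39845 and Gm815 rose in PRC1-CD but were lower in DKO oocytes and Gm10364 did the reverse. Opposite calls over all genes were not counted. Among all genes tested in both, 1024 of the 1726 higher in PRC1-CD (59.3%) were among the 2168 higher in DKO (47.2%). Over the other abundant genes 129 of 194 (66.5%) were higher in DKO too, and made up 25.4% of those higher in DKO. The DKO side contains the WT libraries of the rule.

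In morulae few of the 191 could be tested, since 65 reached a mean of 1 TPM in at least 1 group, and a transcript present in a single group passes that filter only through it. Maternal DKO against WT morulae had 3 lower and 0 higher of 65 (4.62%, background 1.74% of all genes, with 1.41% lower and 0.329% higher), with 10 of 65 at an unadjusted p under 0.05. Maternal TKO against WT had 1 lower and 0 higher (1.54%, background 0.567%, with 0.391% lower and 0.176% higher), and maternal TKO against maternal DKO had 1 higher and 0 lower (1.54%, background 0.0689%, with 0.0230% lower and 0.0460% higher). Under quantile or median-ratio scaling the first of these became 3 lower and 1 higher, the added one being Gm11545, chosen for mention after its values were seen. Its log2 change was 0.49 ± 0.14 (SE, adjusted p = 0.0637) without such scaling and had an adjusted p of 0.0174 with quantile and 0.0274 with median-ratio scaling.

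Gm8210, a pseudogene on chromosome 1 (chr1:43189052-43189773, plus strand), changed most. Its lowest, median and highest library was 7.21, 249 and 289 TPM in maternal TKO morulae, 3.83, 8.01 and 13.7 TPM in maternal DKO morulae and 245, 274 and 317 TPM in WT morulae. Every maternal DKO library lay below every WT library. The maternal TKO libraries fell into 2 sets, 4 between 7.21 and 10.1 TPM and 6 between 245 and 289 TPM, with nothing between. Maternal DKO against WT had a log2 change of -5.00 ± 0.59 (SE, adjusted p = 6.99e-06) and maternal TKO against maternal DKO one of 3.01 ± 0.59 (adjusted p = 0.0316). The second call was lost with the 2 groups fitted alone (adjusted p = 0.201) and with no filter on low values (0.143). Libraries also split in oocytes, where Gm8210 had 0.98, 43.9 and 42.5 RPKM in TKO, 34.3, 69.7 and 68.2 RPKM in DKO and 0.83, 32.4 and 30.5 RPKM in WT oocytes. PRC1-CD oocytes had 0.76 and 1.20 RPKM and PRC1-WT oocytes 0.74 and 0.93 RPKM. All of its words occur in other genes, so reads may be shared.

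Gm44504, a protein-coding model on the X chromosome that lies over Ubl4a and Slc10a3 on the same strand, had lowest, median and highest levels of 18.7, 34.6 and 89.0 TPM in maternal TKO, 15.7, 59.8 and 94.6 TPM in maternal DKO and 78.6, 94.1 and 145 TPM in WT morulae. The maternal TKO range lay inside the maternal DKO range, and both reached above the lowest WT library. The highest maternal DKO library, at 94.6 TPM, lay above the WT median of 94.1 TPM. Its log2 change from WT was -1.35 ± 0.28 in maternal TKO (SE, adjusted p = 0.0167) and -1.06 ± 0.28 in maternal DKO (adjusted p = 0.0455). Both calls were lost with no filter on low values, at 0.0503 and 0.112. Ubl4a averaged 17.7 TPM in maternal TKO, 24.1 in maternal DKO and 36.1 in WT morulae. Gm2560, a lncRNA on chromosome 4, had 0, 3.86 and 13.8 TPM in maternal TKO, 0, 0 and 8.41 TPM in maternal DKO and 0.77, 9.59 and 21.9 TPM in WT morulae. It was lower in maternal DKO by 2.16 on the log2 scale (± 0.50 SE, adjusted p = 0.0224), a call lost with no filter on low values (0.0679), and the groups overlapped. In oocytes it had 15.5, 1.43 and 28.5 RPKM in TKO, 19.8, 2.51 and 2.94 RPKM in DKO and 42.9, 45.1 and 41.7 RPKM in WT, so both mutants lay below WT in every library.

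**Figure D5:**
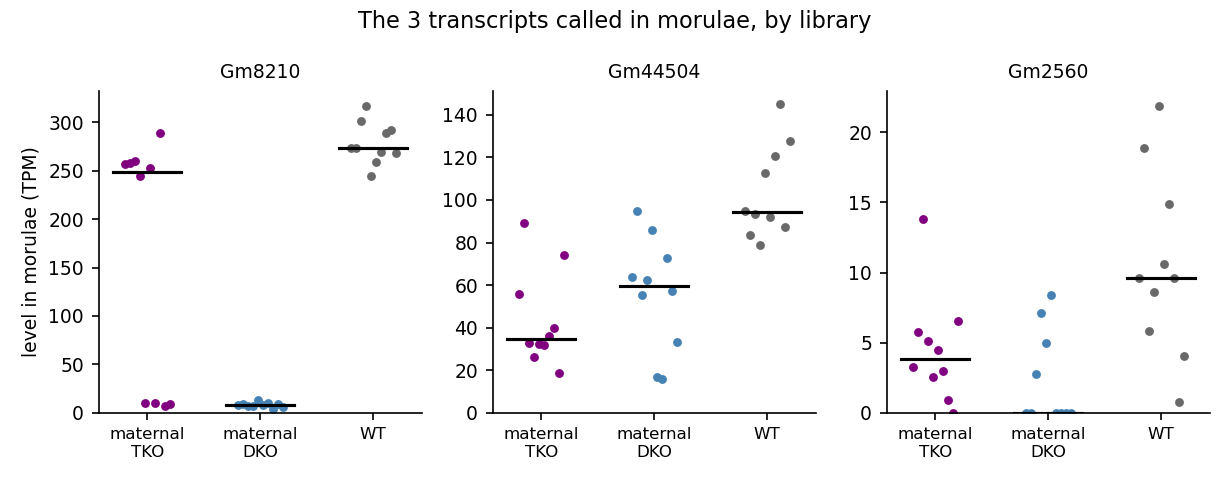
Level of the 3 transcripts called in morulae in each library (TPM, linear axis), with a bar at each group's median (n = 10 each). Maternal TKO libraries of Gm8210 form 2 sets, 6 near the WT level of 245 to 317 TPM and 4 near the maternal DKO level.

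Of the 10 transcripts highest in WT morulae, Gm8210 alone passed a test against WT, and that in maternal DKO morulae. Gm1821 averaged 1809 ± 635 TPM in maternal TKO, 1577 ± 549 in maternal DKO and 2058 ± 605 in WT morulae (SD, n = 10 each), with log2 changes from WT of -0.22 ± 0.21 and -0.41 ± 0.21 (SE). Gm15698 averaged 488 ± 212 TPM in maternal TKO, 447 ± 137 in maternal DKO and 432 ± 120 in WT morulae. Gm4184 averaged 658 ± 143 TPM in maternal TKO, 597 ± 184 in maternal DKO and 768 ± 149 in WT morulae. Of the 128 transcripts at most 1 TPM in WT morulae, Gm813, Gm13103 and Gm30423 averaged at most 0.034 TPM in each of the 3 morula groups. The summed level of the 191 was 0.738 ± 0.0806% of the library in maternal TKO, 0.692 ± 0.0549% in maternal DKO and 0.772 ± 0.0651% in WT morulae.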

How the data were processed

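The labels' protocols give SMART-Seq v4 for cDNA and Nextera XT for the libraries. The submitters' processing notes name featureCounts 1.6.0, RSEM 1.3.1, STAR 2.7.3 and 2.7.6, Trim Galore 0.6.4 and the builds mm10 and GRCm38, with no role for each. The 2 oocyte tables hold RPKM as deposited by the authors. The morula table is titled RPKM too, but its libraries sum to between 999421 and 999922, so the deposited values were treated as TPM made by the authors. Depth is unknown, so no counting interval is given and an exact 0 is described as listed at 0.

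Dropped from each of the oocyte tables were 27 entries turned into calendar dates. Tests used limma 3.58.1 (R 4.3.3) on log2(value + 1), with eBayes and a trend (two-sided, genes with a group mean of 1 or more, Benjamini-Hochberg over all genes of a comparison, called at 0.05), all groups of a table in 1 fit, for 7 comparisons. The scale understates changes of low values. The script was tested on simulated data. The labels do not tie replicates to animals, so p-values measure the spread between libraries, which may be technical. Words of 50 bases were searched in GENCODE M21 transcripts and words of 30 bases in RefSeq promoters, on both strands. Transcripts and lists were chosen with earlier results of these data known. Named were the first 10 in WT oocytes and in WT morulae, up to 4 largest called rises and falls of each comparison, the transcripts next to the limit and those with an informative annotation. Alternatives were the pseudocount, the filter, 2 scalings, the replicate block, 2-group fits, other choices of transcripts and leaving out libraries.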

Additional observations from a re-analysis of the deposited data

Results flagged for a closer look

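In groups of 10 morulae the highest or lowest library was compared with its neighbour by Dixon's criterion, for the share of the 191 in the library, for each named transcript averaging at least 1 TPM in the group and for Gm3143 in WT morulae, whose range is given. These were 55 groups, of which chance alone marks about 1 in 20. The test marked 7 libraries. Gm35498 stood at 34.9 TPM in WT morula 9, with 5.18 TPM next, and at 11.5 TPM in maternal TKO morula 8, with 5.58 TPM next. Gm2560 stood at 13.8 TPM in maternal TKO morula 3 (6.51 TPM next), Gm14295 at 45.7 TPM in maternal DKO morula 1 (29.4 TPM next), Gm8430 at 489 TPM in maternal DKO morula 8 (381 TPM next) and Gm36159 at 3.62 TPM in WT morula 6 (1.83 TPM next). Gm3143 stood at 4.48 TPM in WT morula 8, with 1.31 TPM next.

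For 3 named transcripts every PRC1-CD library lay below every PRC1-WT library while every DKO library lay above every WT library. The log2 changes in PRC1-CD and DKO were -0.31 and 0.55 for Gm13269, -0.13 and 1.01 for Gm34045, and -0.73 and 0.42 for Gm10364. In PRC1-CD the changes of Gm13269 and Gm34045 did not pass the limma test. That of Gm10364 did (adjusted p = 0.0247), but not with no filter on low values (0.0601). How many of all genes show such an order of libraries was not counted. The difference between these changes was not tested, since the tables were normalised apart.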

How the results depend on the processing

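Without a filter on low values 26 transcripts were called in PRC1-CD oocytes in place of 55, and 1, 0 and 0 in maternal DKO against WT, maternal TKO against WT and maternal TKO against maternal DKO morulae. The choice limited to a mean of 50 RPKM or more held 91 transcripts. Of these 91, 56 were called in TKO against DKO oocytes, 62 in TKO and 38 in DKO against WT and 25 in PRC1-CD. Over all genes the shares called were 48.6, 51.3, 28.8 and 22.9%, in the same order. In each morula comparison 0 were called, and 60 of the 91 were at most 1 TPM in WT morulae. Fewer transcripts were tested there than in the full set. In maternal TKO against maternal DKO morulae 0 were called with the 2 groups fitted alone and 0 with transcripts chosen on PRC1-WT oocytes. Leaving out single libraries gave between 13 and 18 calls in PRC1-CD, 59 and 93 in DKO against WT, 99 and 117 in TKO against WT and 94 and 108 in TKO against DKO. In oocytes 1 of 9 pairs of equal replicate number in the knockout series and 0 of 2 in the PRC1 set correlated above 0.1. A library correlated best with its own number in 6 of 18 cases in the knockout series and in 4 of 4 in the PRC1 set. With 2 libraries per group the deviations from the group mean mirror each other, so the PRC1 set cannot show whether its numbers pair. In morulae 13 of 30 same-numbered pairs correlated above 0.1, against 45 of 270 pairs with unequal numbers. A morula library correlated best with its own number in 17 of 60 cases. The labels do not say whether morulae of equal number share a litter, day or batch. The main morula fits, which have no block, may therefore leave out a pairing. With the replicate number as a block, 6 and 2 transcripts were called in maternal DKO and maternal TKO against WT morulae, those added in maternal DKO being Gm11545, Gm14295 and Gm6644 (adjusted p = 0.0283, 0.0477 and 0.0415). Quantile scaling put the median of all genes in PRC1-CD at -0.08 on the log2 scale in place of 0.04, and there 42 were lower and 11 higher. Of 470 alternative values of named transcripts, 429 kept direction and call, 41 kept the direction and lost the call, 27 of them by leaving out a library, and 0 reversed. The cause was not tested. The unknown depth limits what can be said of low values.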

Other observations

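Within 1 oocyte group, 4 of the 191 transcripts had libraries more than 5 times apart with the higher at 10 RPKM or more. The share of all genes with such a spread was not counted. The 4 transcripts were Gm8210 in TKO (0.98 to 43.9 RPKM) and WT (0.83 to 32.4), Gm6943 in TKO (2.73 to 40.4), Gm2560 in TKO (1.43 to 28.5) and DKO (2.51 to 19.8), and Gm32687 in PRC1-CD (0.05 to 24.4). For Gm8210 and Gm6943 the first TKO library was the low one, and for Gm2560 the second. They were picked out after their values were seen, and each difference that involves these groups carries this spread in its error.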
